A study of Mus musculus with 18 samples.

Results

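One day after permanent tying of the left anterior descending artery near its origin, infarcted heart tissue from 3 mice was compared by RNA-seq with heart tissue from 3 sham mice. The comparison covers the 12526 genes, of 24419 gene symbols in the deposited table, whose FPKM was 1 or more in at least 1 of these 6 mice. FPKM counts fragments per kilobase of transcript, scaled to the mapped fragments of the library, so levels of different genes are per length and can be set side by side. The genes were taken by that level alone and not by how they changed. The infarcts lay mainly towards the apex of the ventricle. All mice were male, of strain C57BL/6, 8 weeks old and anaesthetised with sodium pentobarbital, and no transgene or further drug is named for either group. The labels call the sham mice controls, and as the times of the study start at 0 min and the other 5 groups are timed after ligation, the sham mice stand for 0 min. The series holds 18 mice, namely 3 sham mice and 3 for each of the 5 times after ligation (10 min, 1 h, 6 h, 24 h, 72 h). The groups at 6 h and 72 h were used here only to show where the 24 h group differed from them.

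Permanent coronary occlusion kills the myocytes of the supplied wall within hours, and the surviving myocytes at its border are stretched and short of oxygen. Dying cells release signals that call neutrophils first and Ly6C-high monocytes next, and these cells clear debris before fibroblasts lay down a collagen scar. At 1 day the tissue is in the inflammatory phase of this sequence, in which dead muscle, surviving muscle and arriving leukocytes lie side by side. RNA from a piece of such tissue mixes all of them, and fewer cells of a type and less RNA per cell cannot be told apart.

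Of the 12526 genes, 3452 (27.6%) were higher and 1513 (12.1%) were lower at 24 h than in sham by an adjusted p under 0.05, and these are the genes called changed here. The test was the moderated test of limma on log2(FPKM + 1) and was two-sided. Its p-values were adjusted by Benjamini-Hochberg for all genes in the test. Log2 fold changes (log2FC) are differences of mean log2(FPKM + 1), 24 h minus sham. They are given as the estimate ± its standard error (SE) from limma. For genes of low FPKM they understate the change. A ratio of mean FPKM over 2 was also met by 1288 called genes (10.3%) that were higher and by 319 (2.55%) that were lower. With that ratio, median-of-ratios scaling gave 1028 and 486, and quantile normalization 844 and 644. By the thresholds of the study, an unadjusted p under 0.05 and that ratio, 1429 genes (11.4%) were higher and 342 (2.73%) lower. The 3 mice at 24 h all lay above the 3 sham mice for 5005 genes (40.0%) and all below them for 2462 (19.7%). FPKM of 1 was reached only at 24 h by 797 genes, of which 422 (52.9%) were called higher and 0 lower. Only in sham was it reached by 254 genes, of which 90 (35.4%) were called lower and 0 higher. Lists with members that reached it only at 24 h, such as Cxcr2, Cxcl3, Il1b and Nlrp3, lean towards higher calls by that choice of genes. How many members of each list did so was not counted. Counts with an adjusted p depended on which mouse was left out, and they fell most without a sham mouse. Without the first, the second or the third sham mouse the higher and lower calls were 1376 and 380, 1495 and 437, and 1765 and 505, and they were 3989 and 1787, 2964 and 1340, and 3370 and 1443 without the first, the second or the third mouse at 24 h. The median gene stood 0.13 higher at 24 h on the log2 scale. Median-of-ratios scaling, which removes such a shift, gave 2454 higher and 2369 lower calls, and quantile normalization gave 2075 and 2677. Small changes are therefore read below against that median. Of all genes, 51.7% had an unadjusted p under 0.05. Where none of a gene list is said to have moved in a direction by limma, none did at an unadjusted p under 0.05 either, apart from 1 gene each that was lower in the fetal and stretch list and in the AP-1 list, and 1 that was higher in the aryl hydrocarbon receptor list. Gene lists are described by their counts beside these shares of all genes, and counts against sham that move by more than 1.5 times with a mouse left out, or with median-of-ratios or quantile scaling, are given with that mouse or scaling. Likewise, where leaving out 1 mouse ended the call of a gene, the highest adjusted p so reached and the mouse left out follow the adjusted p.

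The mice at 24 h were less alike than the sham mice. The median gene had an SD of 0.19 on the log2 scale among the 3 mice at 24 h and of 0.083 among the sham mice. The third mouse at 24 h lay farthest from sham, and it was the highest of the 3 for 1126 of the 1288 genes called higher with a ratio over 2, and the lowest for 262 of the 319 called lower. It is named below where it carries a value. Relative depth, estimated from the lowest FPKM in each mouse, ran from 0.865 to 1.24 times that of the first sham mouse, and the third mouse at 24 h had the lowest. The origin of the tissue was checked with Tnnt2, the cardiac troponin T gene, which had 23074, 23970.2 and 21543 FPKM in sham and 21262, 20392 and 18799 FPKM at 24 h. The atrial light chain gene Myl7 was at or below 0.151 FPKM in all 6 mice, so that heart muscle was present in both groups and atrial muscle was near the limit of measurement.

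**Figure D1:**
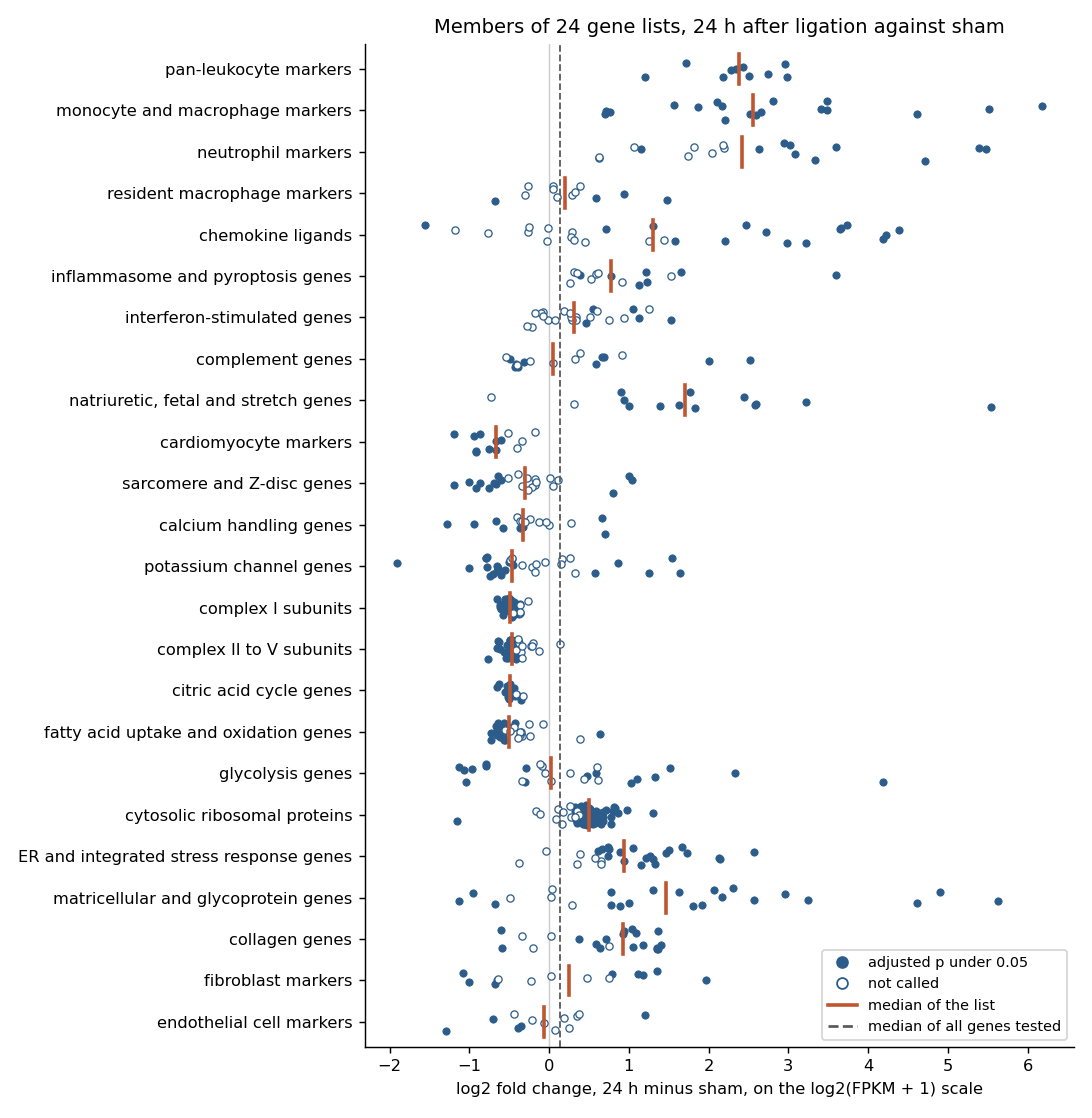
Log2 fold change at 24 h against sham (horizontal axis, 24 h minus sham) of every tested member of 24 gene lists. Each point is a gene, filled where its adjusted p was under 0.05 and open otherwise, the short vertical bar is the median of the list, and the dashed line is the median of all 12526 genes, 0.13. Monocyte and leukocyte lists lie to the right, and complex I and citric acid cycle genes form narrow bands left of 0. Complex II to V genes run from -0.76 to 0.13 and fatty acid genes from -0.73 to 0.64. The fetal and stretch genes of the myocyte lie with the inflammatory lists on the right.

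Genes of recruited monocytes and macrophages were higher without exception, and one, Arg1, was among the largest rises of the comparison. All 18 tested genes of that list were called higher, with a median log2 fold change of 2.55. The share called higher was 27.6% of all genes and 52.9% of those that reached FPKM 1 only at 24 h, as Arg1 and Ccr2 did. All 10 pan-leukocyte genes were higher too (median 2.39), as were all 10 Fc gamma receptor and adaptor genes (median 2.31). Arg1, the arginase that macrophages use to divert arginine from nitric oxide synthesis, had the largest rise by log2 fold change. That rank is among called genes without overlap between the groups, leaving out predicted symbols and symbols turned into dates. Arg1 (mm10, chr10:24915221-24927484, minus strand) was at 0, 0.0214 and 0.0576 FPKM in sham and at 59.1, 23.8 and 276 FPKM at 24 h (log2FC 6.18 ± 0.76, adjusted p = 0.00322). No mouse of one group came near the other, and the third mouse at 24 h was highest. Spp1, which encodes osteopontin, a phosphoprotein secreted by macrophages, had 0.0112, 0.0336 and 0.0604 FPKM in sham and 35.6, 39.3 and 90.8 FPKM at 24 h (log2FC 5.63 ± 0.32, adjusted p = 0.000352). Chil3, a chitinase-like protein of monocytes and alternatively activated macrophages, had 0.0817, 0.0836 and 0.110 FPKM in sham and 44.6, 17.9 and 142 FPKM at 24 h (log2FC 5.51 ± 0.64, adjusted p = 0.00268). Ccr2, the receptor by which inflammatory monocytes follow Ccl2 out of the marrow, had 0.602, 0.791 and 0.521 FPKM in sham and 12.1, 15.4 and 27.4 FPKM at 24 h (log2FC 3.48 ± 0.27, adjusted p = 0.00103). Among the 3 mice at 24 h the highest was 2.26 times the lowest for Ccr2 and 11.6 times the lowest for Arg1. Galectin-3, encoded by Lgals3, is made by phagocytes and binds glycoproteins, and it stood at 3.07, 4.99 and 3.94 FPKM in sham and 112, 100.2 and 241 FPKM at 24 h (log2FC 4.83 ± 0.33, adjusted p = 0.000725). Lyz2, lysozyme, the most abundant gene of the list in sham, already stood at 131, 133 and 158 FPKM there and rose to 373, 404 and 485 FPKM (log2FC 1.57 ± 0.13, adjusted p = 0.00116). Itgam, the Cd11b chain of the integrin by which myeloid cells adhere, had 0.682, 0.774 and 0.663 FPKM in sham and 12.6, 8.45 and 44.98 FPKM at 24 h (log2FC 3.41 ± 0.52, adjusted p = 0.00543). Of 16 selectins and leukocyte adhesion genes 11 were higher (6, 6 and 7 without the first, the second and the third sham mouse) and 2 lower (1 without any 1 sham mouse). The 2 that fell, Jam2 and Jam3, encode junction proteins of endothelium (-0.83, adjusted p = 0.00568, and -0.43, adjusted p = 0.0232 or, lacking the first sham mouse, 0.0881, on the log2 scale).

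Neutrophil genes rose as well, but unevenly between mice. Of 18 tested genes of the list, 10 were called higher (4, 5 and 5 without the first, the second and the third sham mouse and 17 without the second mouse at 24 h) and none lower, with a median of 2.41. Of all genes that reached FPKM 1 only at 24 h, as Cxcr2 did, 52.9% were called higher. S100a8 and S100a9 encode the subunits of calprotectin, the main calcium-binding protein of the neutrophil cytosol. S100a9 had 2.62, 4.02 and 1.53 FPKM in sham and 156, 28.9 and 721 FPKM at 24 h (log2FC 5.39 ± 1.01, adjusted p = 0.00913). The third mouse at 24 h had 4.62 times the level of the first and 24.96 times that of the second. The chemokine receptor gene Cxcr2, which neutrophils need to enter tissue, followed the same order, with 0.0391, 0.160 and 0.174 FPKM in sham and 8.33, 2.57 and 42.3 FPKM at 24 h (log2FC 3.33 ± 0.79, adjusted p = 0.0175 or, lacking the first sham mouse, 0.0644). Slfn4, a Schlafen gene of myeloid cells, had 0.383, 0.897 and 0.489 FPKM in sham and 108, 26.1 and 389 FPKM at 24 h (log2FC 6.06 ± 0.84, adjusted p = 0.00433). Over the list, the median difference from sham was 1.75, 1.25 and 4.37 in the first, the second and the third mouse at 24 h. Without the third mouse at 24 h the list's median was 1.45. Mpo and Elane, which encode granule proteins that neutrophils make in the marrow, were near 0. In the 3 mice at 24 h Mpo was at 0, 0.0247 and 0.0178 FPKM and Elane at 0.116, 0 and 0.0790 FPKM. Lcn2, a siderophore-binding protein of neutrophils that stressed myocytes and epithelia also make, was counted in this list and had 4.81, 4.20 and 3.54 FPKM in sham and 214, 121 and 456 FPKM at 24 h (log2FC 5.47 ± 0.42, adjusted p = 0.00106). Its highest mouse at 24 h stood at 3.75 times the lowest. AA467197 had 0, 0.636 and 0.273 FPKM in sham and 27.7, 15.96 and 106 FPKM at 24 h (log2FC 4.87 ± 0.62, adjusted p = 0.00346), in the same order of mice as the calprotectin genes.

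Resident macrophage genes were called at shares near those of all genes, 25.0% higher and 8.33% lower against 27.6% and 12.1%. Of 12 tested, 3 were called higher (1 without the first sham mouse and 6 without the third mouse at 24 h) and 1 lower (none without the first or the second sham mouse, 2 without the second mouse at 24 h and 2 with either other scaling). The lower was Timd4, the phosphatidylserine receptor that marks self-renewing resident macrophages, with 3.35, 3.09 and 2.64 FPKM in sham and 1.84, 1.67 and 1.08 FPKM at 24 h (log2FC -0.68 ± 0.15, adjusted p = 0.0145 or, lacking the first sham mouse, 0.0649). Folr2 and Lyve1, expressed by the same cells, were not called (adjusted p = 0.109 and 0.852). Mrc1, the mannose receptor gene, rose from 8.12, 9.60 and 11.6 FPKM to 20.03, 21.9 and 16.9 FPKM (log2FC 0.94 ± 0.15, adjusted p = 0.00575). Among lipid-handling macrophage genes Trem2 rose (log2FC 2.18 ± 0.22, adjusted p = 0.00196), whereas Apoe fell from 90.99, 88.1 and 95.7 FPKM to 73.3, 70.2 and 71.9 FPKM (log2FC -0.35 ± 0.08, adjusted p = 0.0148 or, lacking the third sham mouse, 0.0722). Lymphocyte genes were scarce. Of the T cell and B cell lists 2 genes each reached the level for testing, and of the NK cell list none. In each of the 2 lists 1 gene was called higher and none lower. Neither list kept a higher call without any 1 sham mouse, without the second mouse at 24 h or with quantile scaling. The B cell list had 2 higher without the first mouse at 24 h and none without the third. In the T cell list 1 was lower with quantile scaling. Cd3e, part of the T cell receptor complex, stayed at or below 0.361 FPKM in all 6 mice. Of 4 tested platelet genes 3 were higher (1 without any 1 sham mouse) and none lower. Pf4, the platelet factor 4 chemokine, had 15.6, 15.6 and 19.5 FPKM in sham and 48.6, 41.7 and 89.5 FPKM at 24 h (log2FC 1.70 ± 0.27, adjusted p = 0.00583). Which cells carried Pf4 RNA was not tested.

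Chemokine ligands rose with these cells. Of 27 tested, 14 were higher (9 without any 1 sham mouse) and 1 was lower (2 without the third mouse at 24 h and 3 with either other scaling). Ccl2, the main attractant of Ccr2-positive monocytes, had 3.54, 3.19 and 3.01 FPKM in sham and 60.1, 54.9 and 204 FPKM at 24 h (log2FC 4.39 ± 0.46, adjusted p = 0.00221). The neutrophil attractants Cxcl2 and Cxcl3 had the widest spread. Cxcl2 had 0.149, 0.126 and 0.110 FPKM in sham and 13.8, 2.33 and 174 FPKM at 24 h (log2FC 4.18 ± 1.25, adjusted p = 0.0348 or, lacking the first sham mouse, 0.0968). Cxcl3 was listed at 0 in all sham mice and had 17.9, 1.19 and 156 FPKM at 24 h (adjusted p = 0.0417 or, lacking the first sham mouse, 0.109), and the third mouse stood at 131 times the second. The homeostatic chemokine Cxcl12, the highest member in sham, was not called, with 294, 277 and 261 FPKM in sham and 276, 416 and 353 FPKM at 24 h (adjusted p = 0.14). Cxcl9, an interferon-induced attractant of T cells, was the only member called lower (log2FC -1.55 ± 0.17, adjusted p = 0.0023).

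Interleukin-1 and its brake rose side by side. Il1b, which encodes the cytokine released after inflammasome cleavage, had 0.401, 0.414 and 0.364 FPKM in sham and 7.68, 4.31 and 103 FPKM at 24 h (log2FC 3.60 ± 1.00, adjusted p = 0.0279 or, lacking the first sham mouse, 0.0838). Il1rn, the receptor antagonist that blocks it, had 0.199, 0.135 and 0.119 FPKM in sham and 17.4, 8.28 and 115 FPKM at 24 h (log2FC 4.56 ± 0.82, adjusted p = 0.00795). In each of the 3 mice at 24 h the antagonist gene stood above the cytokine gene per length, and both were highest in the third mouse. Of 15 tested inflammasome and pyroptosis genes 7 were called higher (3, 2 and 3 without the first, the second and the third sham mouse) and none lower, with a median of 0.78. Among the 15, Il1b and Nlrp3 reached FPKM 1 only at 24 h. Nlrp3, the sensor of the best known inflammasome, had 0.125, 0.275 and 0.190 FPKM in sham and 1.51, 1.08 and 9.25 FPKM at 24 h (log2FC 1.66 ± 0.55, adjusted p = 0.0494 or, lacking the first sham mouse, 0.128), and the third mouse was far above the other 2 at 24 h. Casp1, the protease that cleaves pro-interleukin-1 beta and gasdermin D, had 2.70, 2.15 and 2.14 FPKM in sham and 3.33, 3.29 and 3.36 FPKM at 24 h (log2FC 0.38 ± 0.11, adjusted p = 0.03 or, lacking the second sham mouse, 0.112). The 3 mice at 24 h were almost level, and all stood above the highest sham mouse. With median-of-ratios scaling neither Nlrp3 nor Casp1 was called (adjusted p = 0.053 and 0.0843). Neither was called with quantile scaling or with no filter on low values. Nlrp3 also lost its call with rescaling to the same sum, with the filter over all mice of the series and without the variance trend. Casp1 also lost its call with the replicate block. Gsdmd, whose cleaved product forms the membrane pore of pyroptosis, had 1.61, 1.57 and 1.73 FPKM in sham and 1.61, 2.20 and 3.20 FPKM at 24 h and was not called (log2FC 0.31 ± 0.18, adjusted p = 0.189). Its sham and 24 h mice overlapped. Il18, Nlrp1b and Naip6 stayed below an FPKM of 1 in all 6 mice and were not tested, and Naip2, a sensor of bacterial needle protein, had 0.376, 0.354 and 0.479 FPKM in sham and 0.877, 0.624 and 2.22 FPKM at 24 h and was not called (adjusted p = 0.091).

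Receptors and feedback factors of innate signalling rose beside them. Of 17 Toll-like receptors and adaptors 10 were higher (3, 4 and 6 without the first, the second and the third sham mouse) and 1 lower (none without the first or the second sham mouse and none without any 1 mouse at 24 h). Cd14, which hands lipopolysaccharide to Tlr4, had 4.50, 5.35 and 4.85 FPKM in sham and 24.99, 16.7 and 151 FPKM at 24 h (log2FC 2.81 ± 0.72, adjusted p = 0.022 or, lacking the first sham mouse, 0.074). Of 13 NF-kappaB subunits and feedback inhibitors 6 were higher (1 and 3 without the first and the second sham mouse) and none lower. Nfkbiz, a nuclear inhibitor-like cofactor that NF-kappaB itself induces, had 2.56, 2.65 and 2.74 FPKM in sham and 6.58, 8.62 and 20.6 FPKM at 24 h (log2FC 1.67 ± 0.35, adjusted p = 0.0124 or, lacking the first sham mouse, 0.052). Nfkb1, the p105 subunit and the most abundant of the list in sham, was not called, with 34.6, 34.95 and 40.8 FPKM in sham and 38.4, 42.5 and 52.7 FPKM at 24 h (adjusted p = 0.151). Socs3, the feedback inhibitor of gp130 cytokines, had 1.64, 1.72 and 1.48 FPKM in sham and 12.2, 7.44 and 51.6 FPKM at 24 h (log2FC 2.79 ± 0.60, adjusted p = 0.0133 or, lacking the first sham mouse, 0.0525). Clcf1, a ligand of the same receptor family, had 1.06, 1.32 and 1.53 FPKM in sham and 7.67, 10.7 and 13.3 FPKM at 24 h (log2FC 2.30 ± 0.19, adjusted p = 0.00116), whereas the shared receptor chain gene Il6st had 74.6, 77.02 and 74.1 FPKM in sham and 92.1, 82.2 and 101 FPKM at 24 h and was not called (adjusted p = 0.0556). Ptgs2, the inducible cyclooxygenase, had 0.108, 0.332 and 0.452 FPKM in sham and 4.76, 3.77 and 24.8 FPKM at 24 h (log2FC 2.79 ± 0.59, adjusted p = 0.0125 or, lacking the first sham mouse, 0.0538). Tnfrsf12a, the receptor of the cytokine Tweak, had 31.4, 31.6 and 31.5 FPKM in sham and 80.9, 172 and 218 FPKM at 24 h (log2FC 2.17 ± 0.33, adjusted p = 0.00533). All called genes named from these pathways were highest in the third mouse.

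Interferon-stimulated genes were called higher at a share near that of all genes, 20.8% against 27.6%. Of 24 tested, 5 were higher (none, 1 and 1 without the first, the second and the third sham mouse and 3 and 2 with median-of-ratios and quantile scaling) and none lower (2 without the third mouse at 24 h and 3 with quantile scaling). The median of the list was 0.31, against 0.13 for all genes. Isg15, a ubiquitin-like antiviral protein, had 4.01, 2.78 and 4.57 FPKM in sham and 7.22, 6.02 and 17.9 FPKM at 24 h (log2FC 1.12 ± 0.36, adjusted p = 0.0448 or, lacking the second sham mouse, 0.139), with the third mouse again highest. Of 9 tested MHC class II antigen presentation genes 5 were higher and none lower. Ctss, the cathepsin that trims the invariant chain, had 11.9, 12.1 and 14.1 FPKM in sham and 74.4, 72.2 and 118 FPKM at 24 h (log2FC 2.67 ± 0.19, adjusted p = 0.000859). The class II invariant chain gene Cd74 was not among them, with 73.6, 75.7 and 85.8 FPKM in sham and 79.9, 111 and 95.5 FPKM at 24 h (adjusted p = 0.139). Of 17 complement genes 5 were higher (3 each without the first or the second sham mouse, 8 without the third mouse at 24 h and 3 with quantile scaling) and 5 lower (none, 1 and none without the first, the second and the third sham mouse and 3 without the second mouse at 24 h). Both shares were 29.4%, against 27.6% higher and 12.1% lower among all genes. Those that rose were led by Cfp, properdin, which leukocytes store (log2FC 2.52, adjusted p = 0.00126), and C3ar1, the receptor of the C3a fragment (2.01, adjusted p = 0.00229). Serping1, a regulator that inhibits the first complement component, fell (-0.49, adjusted p = 0.013 or, lacking the third sham mouse, 0.055).

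**Figure D2:**
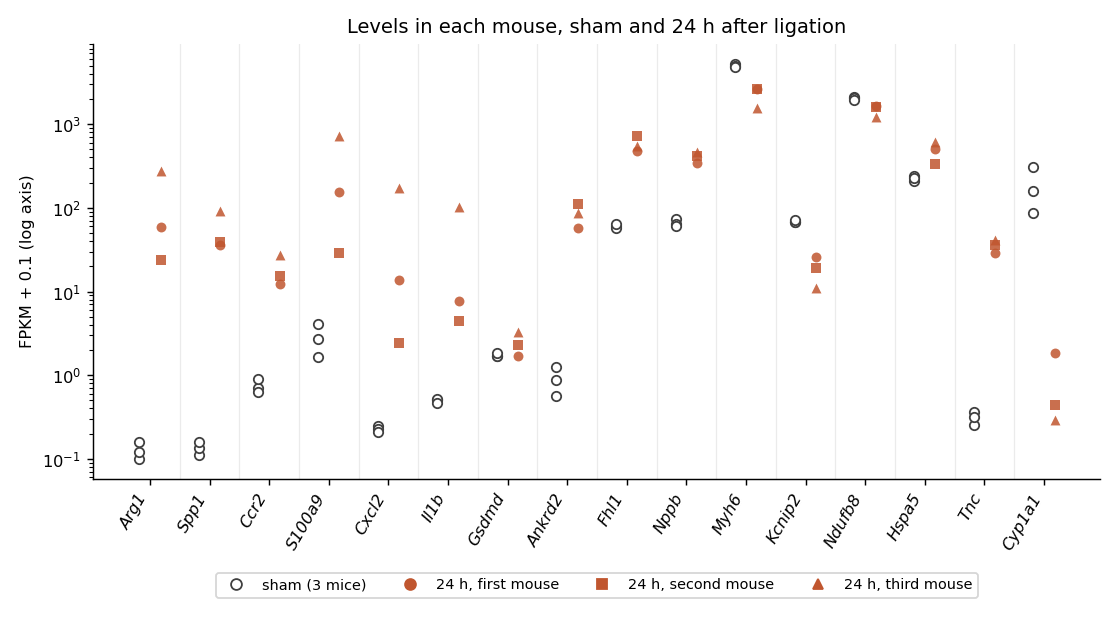
FPKM of 16 genes in each mouse, on a log axis with 0.1 added so that values of 0 can be drawn. Open circles are the 3 sham mice and filled symbols the first (circle), the second (square) and the third (triangle) mouse at 24 h. The third mouse lies above the other 2 for S100a9, Cxcl2, Il1b and Arg1, whereas the 3 mice lie close together for Ankrd2, Fhl1, Nppb and Tnc.

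Stretch and fetal genes of the myocyte rose in all 3 mice. Of 14 natriuretic peptide, fetal and stretch genes 12 were called higher and none lower (1 each without the second or the third mouse at 24 h and 1 with median-of-ratios scaling), with a median of 1.70. Ankrd2, a titin-linked ankyrin repeat protein of the I-band, had 0.774, 1.14 and 0.471 FPKM in sham and 56.7, 110.2 and 86.4 FPKM at 24 h (log2FC 5.54 ± 0.25, adjusted p = 0.000168). Fhl1, a LIM protein that senses strain at titin, had 60.1, 57.6 and 63.7 FPKM in sham and 479, 715 and 549 FPKM at 24 h (log2FC 3.22 ± 0.15, adjusted p = 0.000171). Nppb, which encodes the B-type natriuretic peptide measured in heart failure, had 74.4, 63.5 and 61.3 FPKM in sham and 343, 411 and 467 FPKM at 24 h (log2FC 2.59 ± 0.14, adjusted p = 0.000255). For these 3 genes the highest mouse at 24 h stood at 1.94, 1.49 and 1.36 times the lowest, and no sham mouse came near. The small heat shock protein gene Hspb1, whose product protects filaments, had 651, 599.6 and 703 FPKM in sham and 2896, 3273 and 4274 FPKM at 24 h (log2FC 2.40 ± 0.16, adjusted p = 0.000625). Flnc and Xirp2, which encode filamin C and a Xin repeat protein of the intercalated disc and are used in sarcomere repair, had log2 fold changes of 2.07 (± 0.14, adjusted p = 0.000725) and 2.06 (± 0.11, adjusted p = 0.000255). Itga7, the laminin-binding integrin of muscle, rose from 38.8, 38.4 and 38.998 FPKM to 82.05, 81.98 and 106 FPKM (log2FC 1.18 ± 0.12, adjusted p = 0.00184). Nppa, the atrial natriuretic peptide, rose from 485, 206 and 338 FPKM to 1563, 2273 and 1548 FPKM (log2FC 2.45 ± 0.31, adjusted p = 0.00346), in tissue where Myl7 was near 0. Acta1, the skeletal actin that fetal ventricle uses, had 167, 145 and 217 FPKM in sham and 394, 420.3 and 206 FPKM at 24 h (log2FC 0.90 ± 0.28, adjusted p = 0.0421 or, lacking the second sham mouse, 0.134), and Fhl2, the most abundant member in sham, had 942, 917 and 979 FPKM in sham and 698, 748 and 359 FPKM at 24 h and was not called (adjusted p = 0.0636). Cryab, the other small heat shock protein abundant in heart, had 1812, 1595 and 1682 FPKM in sham and 2932, 3984 and 3377 FPKM at 24 h (log2FC 1.01 ± 0.13, adjusted p = 0.00383).

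Contractile genes fell at the same time. Of 13 cardiomyocyte markers 9 were called lower (5 each without the first or the second sham mouse and 5 with quantile scaling) and none higher, with a median of -0.67. Their per-mouse medians against sham were -0.54, -0.67 and -1.02, lowest in the third mouse, which was the highest for leukocyte genes. Whether the order of the mice in the 2 lists has a common source was not tested. Myh6, the fast alpha myosin heavy chain of the adult mouse ventricle, had 5279, 4903 and 4889.5 FPKM in sham and 2618, 2606 and 1553 FPKM at 24 h (log2FC -1.19 ± 0.21, adjusted p = 0.00729). Myh7, the slow beta chain of the fetal ventricle, had 123, 108 and 108 FPKM in sham and 300.1, 260.0 and 149 FPKM at 24 h (log2FC 1.002 ± 0.24, adjusted p = 0.0189 or, lacking the second sham mouse, 0.0686), and here the third mouse was the lowest of the 3 at 24 h. Tnnt2 itself was not called (adjusted p = 0.221), although all 3 mice at 24 h lay below all sham mice. Tnni3, troponin I of the same complex, was called lower (log2FC -0.75 ± 0.14, adjusted p = 0.00799). Of 24 sarcomere and Z-disc genes 9 were lower (5 without any 1 sham mouse) and 3 higher, so that muscle genes went both ways within the same tissue. Pdlim5, a Z-disc adaptor, had 84.6, 86.6 and 91.1 FPKM in sham and 187, 159.7 and 199 FPKM at 24 h (log2FC 1.04 ± 0.10, adjusted p = 0.00192). Ckm, the muscle creatine kinase, had 1976, 1946 and 1953 FPKM in sham and 1165, 1096 and 882 FPKM at 24 h (log2FC -0.91 ± 0.12, adjusted p = 0.00395).

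Genes that set the myocyte's electrical and calcium cycle were among those that fell. Kcnip2, the subunit without which the fast transient outward potassium current is lost, had 68.3, 67.2 and 71.3 FPKM in sham and 25.98, 19.02 and 10.997 FPKM at 24 h (log2FC -1.91 ± 0.27, adjusted p = 0.00439). Its lowest sham mouse stood at 2.59 times the highest mouse at 24 h, and the third mouse was lowest. Kcnd2 and Kcnd3, the pore subunits it binds, fell too (log2 fold changes -0.64, adjusted p = 0.0193 or, lacking the second sham mouse, 0.0786, and -0.65, adjusted p = 0.038 or, lacking the first sham mouse, 0.12). Of 32 potassium channel genes 16 were lower (3, 5 and 3 without the first, the second and the third sham mouse) and 5 higher (3 without any 1 sham mouse), with a median of -0.46. Scn4b, a beta subunit gene of sodium channels, went from 5.78, 5.66 and 5.65 FPKM to 1.87, 1.06 and 1.32 FPKM (log2FC -1.49 ± 0.14, adjusted p = 0.0015). It was the only gene called lower of 17 sodium channel, gap junction and disc genes, of which 8 were higher. The lower calls of that list were 3 without the first mouse at 24 h and 2 with either other scaling. Of 17 calcium handling genes 6 were lower (1, 1 and 3 without the first, the second and the third sham mouse) and 2 higher. Hrc, which binds calcium inside the sarcoplasmic reticulum, had 1416, 1328 and 1283 FPKM in sham and 703, 533 and 445 FPKM at 24 h (log2FC -1.28 ± 0.17, adjusted p = 0.00363). Atp2a2, the pump that refills the sarcoplasmic reticulum, had 3931, 4026 and 3937 FPKM in sham and 3270.2, 2441 and 1938 FPKM at 24 h (log2FC -0.67 ± 0.18, adjusted p = 0.0272 or, lacking the second sham mouse, 0.0899), and its inhibitor gene Pln fell by 0.95 (± 0.21, adjusted p = 0.0136 or, lacking the first sham mouse, 0.0569). Slc8a1, the sodium-calcium exchanger that extrudes calcium across the surface membrane, was among the 2 that rose (log2FC 0.70 ± 0.12, adjusted p = 0.00745).

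Mylk4, a myosin light chain kinase gene of heart muscle, had 41.2, 35.5 and 38.2 FPKM in sham and 14.97, 8.87 and 5.41 FPKM at 24 h (log2FC -1.97 ± 0.30, adjusted p = 0.00533). Lrtm1, which encodes a leucine-rich repeat membrane protein, had 78.02, 111 and 115 FPKM in sham and 36.1, 38.7 and 13.1 FPKM at 24 h (log2FC -1.88 ± 0.39, adjusted p = 0.012 or, lacking the second sham mouse, 0.0502). The row of Mir208b, a hairpin within an intron of Myh7, went from 52.8, 31.2 and 49.6 FPKM to 8.49, 24.4 and 4.12 FPKM (log2FC -2.05 ± 0.54, adjusted p = 0.0234 or, lacking the first sham mouse, 0.083) while Myh7 rose. The hairpin (mm10, chr14:54975700-54975776, minus strand) lies within Myh7 (chr14:54970684-54994626, minus strand). Poly-A libraries do not measure the mature microRNA, and reads on this row cannot be told from those of the host transcript.

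Most genes of the respiratory chain and the citric acid cycle fell by a small step. Of 37 complex I subunits 32 were called lower, against 12.1% of all genes, and none was higher, with a median of -0.49 and a range from -0.65 to -0.26. Of 46 subunits of complexes II to V 35 were lower and none higher (median -0.47), and of 16 citric acid cycle genes 14 were lower and none higher (median -0.49). The calls needed all 3 sham mice. Without the first, the second or the third of them 1, 2 and 4 complex I genes were called, with medians of -0.48, -0.47 and -0.51. For complexes II to V the counts were 0, 1 and 5, and for the citric acid cycle 1 in each case, or 8 without the second mouse at 24 h. Ndufb8, a subunit of complex I, had 2091, 2047 and 1970.5 FPKM in sham and 1636, 1611 and 1229 FPKM at 24 h (log2FC -0.46 ± 0.13, adjusted p = 0.0299 or, lacking the first sham mouse, 0.109). Cs, citrate synthase, had 620.1, 597 and 608 FPKM in sham and 508, 429.8 and 369.8 FPKM at 24 h (log2FC -0.49 ± 0.12, adjusted p = 0.0216 or, lacking the first sham mouse, 0.0831). In both genes the third mouse at 24 h was the lowest, and no mouse at 24 h reached a sham mouse. Fatty acid genes went the same way, with 15 of 29 lower (1, 2 and 5 without the first, the second and the third sham mouse and 8 without the second mouse at 24 h) and 1 higher (none without any 1 sham mouse, none, 2 and none without the first, the second and the third mouse at 24 h and none with either other scaling). Cpt1b, the carnitine transferase that admits long-chain fatty acids to the mitochondrion, had 238, 225 and 226 FPKM in sham and 194, 133 and 129 FPKM at 24 h (log2FC -0.62 ± 0.16, adjusted p = 0.0225 or, lacking the first sham mouse, 0.0827). Ucp3, an uncoupling protein of muscle, was the 1 that rose (log2FC 0.64 ± 0.19, adjusted p = 0.037 or, lacking the first sham mouse, 0.107). Pdk4, the kinase that shuts pyruvate out of the citric acid cycle, scattered widely, with 118, 95.2 and 77.6 FPKM in sham and 246, 96.9 and 465 FPKM at 24 h, and was not called (adjusted p = 0.0936). The second mouse at 24 h lay within the sham range.

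Glycolysis genes divided by isoform. Of 25 tested, 8 were higher (4 each without the first or the second sham mouse) and 8 lower (2, 5 and 5 without the first, the second and the third sham mouse). Slc16a3, which exports lactate from glycolytic cells, rose most, with 1.26, 1.10 and 1.80 FPKM in sham and 32.4, 18.96 and 119.9 FPKM at 24 h (log2FC 4.19 ± 0.59, adjusted p = 0.00449). Gapdh, the most abundant, had 2443, 2293 and 2337 FPKM in sham and 1921, 1821 and 2061 FPKM at 24 h (log2FC -0.29 ± 0.09, adjusted p = 0.0459 or, lacking the first sham mouse, 0.174). General and muscle forms of the same enzymes moved apart. The following pairs were chosen after their values had been seen. Enolase 1 (Eno1), the general form, went from 109, 95.3 and 109.6 FPKM to 222, 222 and 548 FPKM (log2FC 1.51 ± 0.33, adjusted p = 0.0144 or, lacking the second sham mouse, 0.0574), and enolase 3 (Eno3), the muscle form, went from 1000.4, 931 and 955 FPKM to 517, 521 and 358 FPKM (log2FC -1.07 ± 0.16, adjusted p = 0.00492). Phosphoglycerate mutase Pgam1 rose by 1.10 (adjusted p = 0.0128 or, lacking the second sham mouse, 0.0551) and the muscle form Pgam2 fell by 0.79 (adjusted p = 0.011 or, lacking the first sham mouse, 0.0515). Phosphofructokinase showed the same split, with Pfkp up by 1.32 (adjusted p = 0.0104) and Pfkm lower (log2FC -0.97, adjusted p = 0.0111 or, lacking the first sham mouse, 0.0511). Of the glucose transporters, Slc2a1 had 5.97, 6.42 and 6.06 FPKM in sham and 27.7, 18.5 and 80.8 FPKM at 24 h (log2FC 2.32 ± 0.47, adjusted p = 0.011). The insulin-responsive Slc2a4 had 160.3, 149.9 and 149.6 FPKM in sham and 84.6, 86.5 and 45.97 FPKM at 24 h (log2FC -1.13 ± 0.23, adjusted p = 0.0117 or, lacking the first sham mouse, 0.0522), so that in the third mouse at 24 h Slc2a1 stood above Slc2a4. In the other 5 mice the order was the reverse. Pdk3 rose (log2FC 1.35, adjusted p = 0.00426) where Pdk2, the main isoform of resting heart, fell from 134, 133 and 119 FPKM to 87.2, 70.3 and 54.4 FPKM (log2FC -0.88 ± 0.17, adjusted p = 0.00913). Lactate dehydrogenase moved apart as well, with Ldha up by 0.58 (adjusted p = 0.00767) and the heart form Ldhb at -0.80 (adjusted p = 0.00746). In complex IV the heart and muscle forms Cox6a2, Cox7a1 and Cox8b were lower. The log2 fold change was -0.66 for Cox6a2 (adjusted p = 0.0113 or, lacking the first sham mouse, 0.0558), -0.76 for Cox7a1 (adjusted p = 0.0116 or, lacking the first sham mouse, 0.0563) and -0.56 for Cox8b (adjusted p = 0.0249 or, lacking the second sham mouse, 0.0934). None of their general forms was called higher, since Cox6a1 and Cox8a were not called (adjusted p = 0.384 and 0.444) and Cox7a2 was lower too (log2FC -0.48, adjusted p = 0.0259 or, lacking the second sham mouse, 0.0976).

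**Figure D3:**
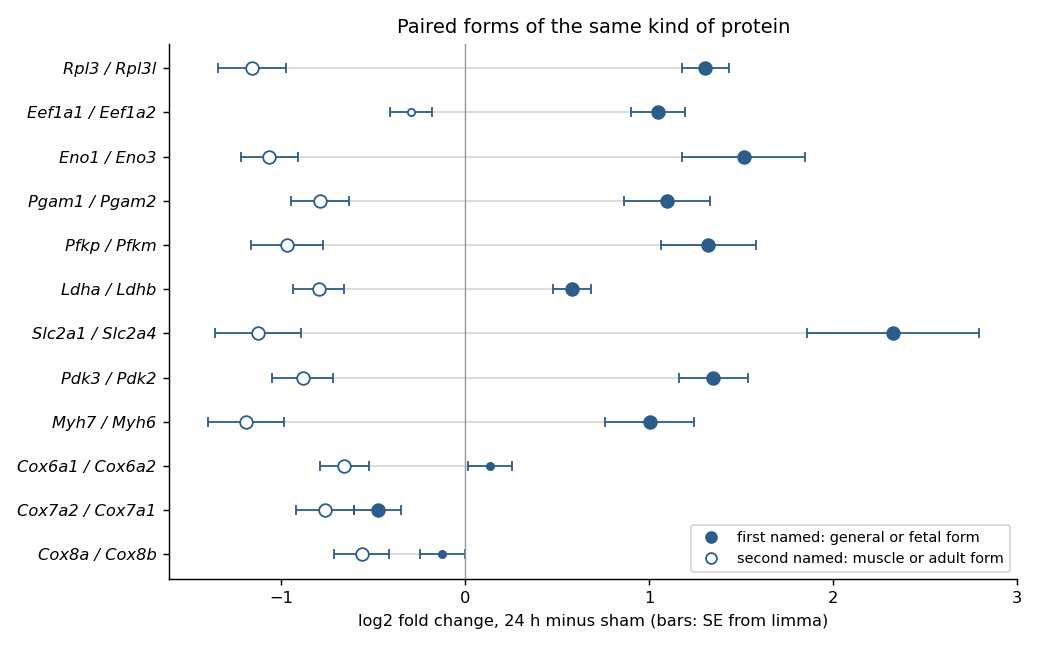
Log2 fold change at 24 h against sham, with its SE from limma as bars, for 12 pairs of genes that encode a general (filled circle) and a muscle-enriched or adult (open circle) form of the same kind of protein. The pairs were chosen after their values had been seen. The form drawn as an open circle lies left of 0 in all 12 pairs, and the other form lies to its right in each, left of 0 for Cox7a2 and Cox8a. Points of genes that were not called are drawn smaller.

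Ribosomal protein genes rose together by a small step. Of 83 cytosolic ribosomal protein genes 71 were called higher (26, 40 and 33 without the first, the second and the third sham mouse) and 1 lower (2 with quantile scaling), with a median of 0.50, against 0.13 for all genes. Median-of-ratios scaling left 44 higher with a median of 0.35, and quantile normalization 64. The exception was Rpl3l, the form of ribosomal protein L3 found in heart and skeletal muscle, with 727, 755 and 741 FPKM in sham and 402, 374 and 243 FPKM at 24 h (log2FC -1.16 ± 0.18, adjusted p = 0.00595). Its general counterpart Rpl3 had 225, 214 and 236 FPKM in sham and 465, 586 and 635 FPKM at 24 h (log2FC 1.30 ± 0.13, adjusted p = 0.00187). Rpl3l stood at 3.23, 3.52 and 3.14 times the level of Rpl3 in sham, and at 0.863, 0.637 and 0.383 times at 24 h. The order of the 2 genes was thus reversed in every mouse at 24 h. The elongation factor Eef1a1 rose by 1.05 (adjusted p = 0.00435), and its muscle form Eef1a2 was not called (log2FC -0.30, adjusted p = 0.0718).

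Ribosome biogenesis genes rose as well, with 16 of 20 higher (10 without the second sham mouse), none lower and a median of 0.95. Rrp12, needed for export of the small subunit, had 6.13, 5.09 and 5.76 FPKM in sham and 13.9, 16.02 and 19.9 FPKM at 24 h (log2FC 1.39 ± 0.14, adjusted p = 0.00198). Npm1, a chaperone of the nucleolus, had 149, 156 and 148 FPKM in sham and 282, 340.2 and 389 FPKM at 24 h (log2FC 1.14 ± 0.13, adjusted p = 0.00236). The groups were apart in both genes, with the 3 mice at 24 h close together. Myc, the transcription factor that drives this programme, had 0.141, 0.174 and 0.163 FPKM in sham and 1.35, 1.59 and 3.23 FPKM at 24 h (log2FC 1.35 ± 0.23, adjusted p = 0.00668). Of 20 aminoacyl-tRNA synthetases 13 were higher (6, 7 and 8 without the first, the second and the third sham mouse) and none lower. Of 42 proteasome subunits 22 were higher (6, 7 and 7 without the first, the second and the third sham mouse and 8 with either other scaling) and 1 lower (none without any 1 sham mouse, 2 and 3 without the first and the second mouse at 24 h and 2 with quantile scaling). Mitochondrial ribosomal proteins, in contrast, were lower in 19 of 77 genes (none, 2 and 2 without the first, the second and the third sham mouse and 33 with median-of-ratios scaling) and higher in 4 (2 each without the first or the second sham mouse).

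Most genes of the unfolded protein and integrated stress responses were higher. When secreted proteins misfold in the reticulum, the sensors ATF6, IRE1 and PERK act on genes of chaperones and disulphide isomerases, many of which carry the endoplasmic reticulum stress response element, a CCAAT box a fixed distance from CCACG. Of 27 tested genes of this response and the integrated stress response 20 were called higher and none lower (1 without the first mouse at 24 h), with a median of 0.94. The 250 bases before the start of each gene (RefSeq, GRCm38.p6) were searched on both strands for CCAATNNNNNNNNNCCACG. Of the 27 genes 25 had a promoter in the table. The motif was found in 7 of them, which is 28.0%, and in 0.13% of the promoters of 27025 symbols. Over all tested genes, 16 had it, of which 8 were called higher and none lower. These 16 include the 7 genes of the list, and 6 of the 8 higher calls are theirs, so that this count largely repeats the list. The 4 sequences below are shown because they belong to called genes of the response, written 5′ to 3′ on the strand of the gene, with the CCAAT and CCACG parts, or their reverse complements, in capitals. They lie at chr2:34771840-34772089 (plus strand) for Hspa5, chr10:86705445-86705694 (minus strand) for Hsp90b1, chr15:88819396-88819645 (plus strand) for Creld2 and chr12:17266339-17266588 (plus strand) for Pdia6.
Hspa5: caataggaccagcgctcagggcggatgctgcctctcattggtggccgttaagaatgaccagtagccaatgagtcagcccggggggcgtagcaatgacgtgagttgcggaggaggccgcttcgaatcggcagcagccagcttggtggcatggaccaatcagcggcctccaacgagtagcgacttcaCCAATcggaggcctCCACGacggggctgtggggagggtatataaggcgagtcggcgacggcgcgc
Hsp90b1: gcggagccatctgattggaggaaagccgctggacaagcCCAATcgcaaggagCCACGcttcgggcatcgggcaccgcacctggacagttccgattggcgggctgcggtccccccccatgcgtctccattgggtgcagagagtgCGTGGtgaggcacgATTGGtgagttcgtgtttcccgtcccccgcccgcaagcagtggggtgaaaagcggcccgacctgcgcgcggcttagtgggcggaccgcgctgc
Creld2: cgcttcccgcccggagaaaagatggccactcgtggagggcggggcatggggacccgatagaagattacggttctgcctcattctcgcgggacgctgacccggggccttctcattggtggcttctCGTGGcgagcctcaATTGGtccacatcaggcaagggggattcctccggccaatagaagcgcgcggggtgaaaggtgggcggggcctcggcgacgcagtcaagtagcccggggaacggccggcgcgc
Pdia6: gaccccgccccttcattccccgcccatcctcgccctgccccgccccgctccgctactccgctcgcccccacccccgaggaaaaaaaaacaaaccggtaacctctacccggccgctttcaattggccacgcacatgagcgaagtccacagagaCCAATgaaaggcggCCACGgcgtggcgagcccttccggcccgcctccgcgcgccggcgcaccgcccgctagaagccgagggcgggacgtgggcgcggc
Hspa5, which encodes BiP, the Hsp70 of the reticulum, had 237, 211 and 228 FPKM in sham and 507, 336 and 605 FPKM at 24 h (log2FC 1.06 ± 0.20, adjusted p = 0.01). Hsp90b1, its Hsp90, has 2 matches and had 55.8, 54.5 and 58.3 FPKM in sham and 105, 87.7 and 126 FPKM at 24 h (log2FC 0.89 ± 0.13, adjusted p = 0.00533). Creld2, a disulphide isomerase of the reticulum, had 4.56, 3.46 and 4.27 FPKM in sham and 11.2, 10.6 and 19.9 FPKM at 24 h (log2FC 1.50 ± 0.23, adjusted p = 0.00539). The groups did not overlap in these 3 genes, and the third mouse was highest in each. Pdia6, another disulphide isomerase, had 60.3, 54.8 and 56.5 FPKM in sham and 145, 127 and 164 FPKM at 24 h (log2FC 1.32 ± 0.11, adjusted p = 0.00118). Of the other genes with a match, Calr and Dnajc3 were called higher (log2 fold changes 0.74, adjusted p = 0.00492, and 0.62, adjusted p = 0.0224 or, lacking the second sham mouse, 0.0808) and Canx was not (adjusted p = 0.0709). Sdf2l1, a cofactor of BiP with no match in this window, rose from 2.88, 2.17 and 2.59 FPKM to 13.7, 12.7 and 17.9 FPKM (log2FC 2.14 ± 0.15, adjusted p = 0.000725). The factors of the integrated stress response were split, since Atf3 rose (log2FC 2.56 ± 0.27, adjusted p = 0.00221) and Ddit3, which encodes the death-promoting factor Chop, was not called, with 21.8, 21.95 and 25.4 FPKM in sham and 23.98, 25.9 and 41.5 FPKM at 24 h (adjusted p = 0.194). A match describes the letters and says nothing of what bound there.

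Metallothioneins, which bind zinc and copper and are induced by metals and glucocorticoids, rose far from sham. Mt2 had 36.5, 34.4 and 36.3 FPKM in sham and 911, 578 and 1983 FPKM at 24 h (log2FC 4.79 ± 0.39, adjusted p = 0.00116). Mt1 had 279, 267 and 288 FPKM in sham and 1143, 810.1 and 1722 FPKM at 24 h (log2FC 2.07 ± 0.25, adjusted p = 0.00293). In the first sham mouse Mt1 stood at 7.64 times the level of Mt2, and in the third mouse at 24 h Mt2 was the more abundant of the 2. The core of the metal response element (TGCACNC or TGCGCNC, both strands) occurs 3 times in the 250 bases before the start of Mt2 (RefSeq, GRCm38.p6, chr8:94172368-94172617, plus strand), where the matches are in capitals. At least 1 match was found in 23.8% of the promoters of 27025 symbols and 3 or more in 1.46%, so that a single match is common and 3 are not. Of the 3207 tested genes with at least 1 match, 843 were called higher and 382 lower, shares close to those of all genes.
Mt2: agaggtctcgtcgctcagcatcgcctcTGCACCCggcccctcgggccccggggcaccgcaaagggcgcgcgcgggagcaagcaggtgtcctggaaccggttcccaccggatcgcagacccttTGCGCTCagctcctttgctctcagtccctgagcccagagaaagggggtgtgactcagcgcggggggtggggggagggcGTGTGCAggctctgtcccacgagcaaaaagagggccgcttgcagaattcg
Hmox1, the haem oxygenase, had 3.85, 4.77 and 5.20 FPKM in sham and 68.2, 40.4 and 240.4 FPKM at 24 h (log2FC 3.99 ± 0.57, adjusted p = 0.00481), highest in the third mouse. Of 22 antioxidant genes under Nrf2, 11 were higher and 4 lower (none, none and 1 without the first, the second and the third sham mouse and 2 without the second mouse at 24 h), and Nqo1, a standard target, was not among them, with 25.6, 30.9 and 28.3 FPKM in sham and 30.7, 25.4 and 25.1 FPKM at 24 h (adjusted p = 0.681). Gclm, a subunit of the enzyme that starts glutathione synthesis, and Txnrd1, a thioredoxin reductase, were called higher (log2 fold changes 1.02, adjusted p = 0.00889, and 1.16, adjusted p = 0.00564). Hypoxia-inducible genes were mixed, with 9 of 25 higher and 3 lower (1 without any 1 sham mouse). Angptl4, a lipase inhibitor that hypoxia and fatty acids induce, had 0.297, 0.474 and 0.518 FPKM in sham and 10.4, 6.77 and 50.5 FPKM at 24 h (log2FC 3.54 ± 0.63, adjusted p = 0.00782). Vegfa, the vascular growth factor under hypoxic control, had 165, 145 and 165 FPKM in sham and 132, 143 and 171 FPKM at 24 h, and the groups overlapped. Egln1, the prolyl hydroxylase that senses oxygen, fell (log2FC -0.57 ± 0.13, adjusted p = 0.0162 or, lacking the second sham mouse, 0.0652). Of the ferritin chains Ftl1 rose from 285, 286 and 277 FPKM to 637, 734 and 1245 FPKM (log2FC 1.56 ± 0.23, adjusted p = 0.00516), and Fth1 was not called, with 1846, 1896 and 1767 FPKM in sham and 1788, 1677 and 2407 FPKM at 24 h (adjusted p = 0.703).

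Early response factors were above sham. Of 21 AP-1, EGR and NR4A genes 18 were higher (11 each without the first or the second sham mouse) and none lower (1 without the first sham mouse), with a median of 1.17. Junb had 8.10, 8.53 and 9.50 FPKM in sham and 31.4, 34.5 and 120.1 FPKM at 24 h (log2FC 2.42 ± 0.47, adjusted p = 0.00978), with the third mouse well above the others. Fos had 0.355, 0.697 and 0.537 FPKM in sham and 2.71, 3.52 and 6.96 FPKM at 24 h (log2FC 1.75 ± 0.27, adjusted p = 0.00575). Cdkn1a, the inhibitor of cyclin-dependent kinases under p53 control, had 10.3, 8.82 and 11.2 FPKM in sham and 62.5, 44.7 and 146 FPKM at 24 h (log2FC 2.77 ± 0.39, adjusted p = 0.00448). Necroptosis genes rose in part, with 7 of 13 higher (3 each without the first or the second sham mouse) and 1 lower (none without any 1 sham mouse and 2 with either other scaling). Ripk3, the kinase of the necrosome, had 4.58, 4.65 and 6.38 FPKM in sham and 14.7, 16.5 and 43.9 FPKM at 24 h (log2FC 1.91 ± 0.38, adjusted p = 0.0109). Of 25 genes of the BCL2 family and caspases 16 were higher (6, 6 and 9 without the first, the second and the third sham mouse) and none lower (1 with quantile scaling). Bcl2a1b, a survival factor of myeloid cells, had 1.82, 1.77 and 1.14 FPKM in sham and 23.9, 19.5 and 68.4 FPKM at 24 h (log2FC 3.68 ± 0.42, adjusted p = 0.00268), but reads of the near-identical Bcl2a1 copies can be split between them. Of 29 autophagy genes 5 were higher (1, 2 and 1 without the first, the second and the third sham mouse, 3 each without the first or the third mouse at 24 h and 1 with either other scaling) and 2 lower (1 without any 1 sham mouse, 5 without the first mouse at 24 h and 5 and 7 with median-of-ratios and quantile scaling). With either other scaling more of them were thus lower than higher. Wipi1 was not called, with 15.3, 15.3 and 15.3 FPKM in sham and 15.4, 12.2 and 13.3 FPKM at 24 h (adjusted p = 0.227). Rrad, a GTPase that restrains calcium channels, was not called either, with 157, 133 and 125 FPKM in sham and 138, 135 and 223 FPKM at 24 h (adjusted p = 0.394).

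Among called genes without overlap between the groups, leaving out predicted symbols and dates, the largest fall was that of Cyp1a1. This gene encodes the cytochrome P450 that the aryl hydrocarbon receptor induces (mm10, chr9:57687928-57703824, plus strand). It had 87.3, 160.0 and 304 FPKM in sham and 1.74, 0.341 and 0.192 FPKM at 24 h (log2FC -6.64 ± 0.48, adjusted p = 0.000859). The highest sham mouse stood at 3.49 times the lowest, and all mice at 24 h lay far below. Of 6 tested genes of the receptor and its targets 1, Cyp1a1, was lower (2 without the third mouse at 24 h and 2 with either other scaling) and none higher (1 without the second mouse at 24 h). Cyp1b1 had 4.59, 5.50 and 6.82 FPKM in sham and 4.13, 4.35 and 7.60 FPKM at 24 h (adjusted p = 0.766). Cyp26b1, which breaks down retinoic acid, had 37.9, 185 and 12.9 FPKM in sham and 7.13, 6.47 and 5.53 FPKM at 24 h (log2FC -2.66 ± 0.82, adjusted p = 0.0383 or, lacking the first sham mouse, 0.0926), and here the second sham mouse made most of the sham mean. Aldh1a2, which makes retinoic acid, went the opposite way, with 0.712, 0.960 and 1.24 FPKM in sham and 10.4, 18.7 and 21.3 FPKM at 24 h (log2FC 3.12 ± 0.25, adjusted p = 0.00116), so that a gene of synthesis and a gene of breakdown moved apart. Lrrc15, a leucine-rich repeat protein of fibroblasts, fell from 9.42, 9.88 and 9.68 FPKM to 2.995, 2.99 and 0.583 FPKM (log2FC -1.86 ± 0.34, adjusted p = 0.00854). Among clock genes 9 of 17 were lower (4, 4 and 5 without the first, the second and the third sham mouse) and 2 higher (none without any 1 sham mouse, 1 without the first mouse at 24 h and none with either other scaling). Dbp, an output gene of the clock, had 91.5, 88.9 and 86.5 FPKM in sham and 23.3, 50.8 and 17.6 FPKM at 24 h (log2FC -1.65 ± 0.34, adjusted p = 0.0116 or, lacking the first sham mouse, 0.0501), and the time of day at which the mice were killed is not given in the sources used here.

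Genes of the matrix that precedes a scar were higher. Of 24 matricellular and glycoprotein genes 17 were higher and 3 lower, with a median of 1.46. Tnc, which encodes tenascin C of the infarct border, had 0.266, 0.155 and 0.212 FPKM in sham and 28.7, 36.1 and 41.1 FPKM at 24 h (log2FC 4.89 ± 0.14, adjusted p = 3.3e-05). It had the smallest adjusted p among the genes named here, and its highest mouse at 24 h stood at 1.43 times the lowest. Timp1, an inhibitor of matrix metalloproteinases, had 0.483, 0.360 and 0.450 FPKM in sham and 33.1, 39.5 and 74.9 FPKM at 24 h (log2FC 5.04 ± 0.27, adjusted p = 0.000296). Fn1, fibronectin, had 12.97, 14.2 and 15.8 FPKM in sham and 88.3, 77.4 and 239 FPKM at 24 h (log2FC 2.96 ± 0.39, adjusted p = 0.00383). Ctgf, which encodes connective tissue growth factor, a target of the stretch-sensitive factors YAP and TAZ, had 29.8, 25.6 and 27.9 FPKM in sham and 212, 289 and 325 FPKM at 24 h (log2FC 3.24 ± 0.16, adjusted p = 0.000247). Thbs1 rose from 2.34, 2.23 and 3.03 FPKM to 60.1, 32.4 and 309 FPKM (log2FC 4.61 ± 0.72, adjusted p = 0.00575), and its relative Thbs2 fell from 9.96, 16.4 and 12.2 FPKM to 7.10, 6.10 and 5.02 FPKM (log2FC -0.95 ± 0.19, adjusted p = 0.0105). Of 31 matrix proteases and inhibitors 16 were higher (10 each without the first or the second sham mouse) and 8 lower (1, 3 and 1 without the first, the second and the third sham mouse). Adamts4, an aggrecanase that also cuts versican, had 0.212, 0.0591 and 0.212 FPKM in sham and 20.1, 7.94 and 78.5 FPKM at 24 h (log2FC 4.41 ± 0.69, adjusted p = 0.0057). Timp3, the most abundant inhibitor in sham, fell to 250.1, 229.9 and 203 FPKM from 277, 330.3 and 303 FPKM (log2FC -0.41 ± 0.11, adjusted p = 0.0264 or, lacking the second sham mouse, 0.105). Fstl3, which binds and blocks activins, had 1.50, 1.52 and 1.68 FPKM in sham and 18.1, 23.7 and 23.2 FPKM at 24 h (log2FC 3.13 ± 0.12, adjusted p = 0.000103), with the 3 mice close together.

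Of 21 tested collagen genes 15 were higher and 2 lower (none, 1 and none without the first, the second and the third sham mouse), with a median of 0.93. Col1a1, the main chain of scar collagen, had 16.7, 13.2 and 19.04 FPKM in sham and 28.5, 54.9 and 33.8 FPKM at 24 h (log2FC 1.17 ± 0.24, adjusted p = 0.0122 or, lacking the second sham mouse, 0.0517). Postn, which encodes periostin and marks activated fibroblasts, had 6.51, 5.95 and 8.81 FPKM in sham and 22.9, 43.1 and 25.2 FPKM at 24 h (log2FC 1.92 ± 0.25, adjusted p = 0.00362). In both genes the second mouse at 24 h was highest, not the third. The 2 that fell were Col4a3 and Col4a4 (log2 fold changes -0.60, adjusted p = 0.027 or, lacking the first sham mouse, 0.101, and -0.60, adjusted p = 0.0179 or, lacking the first sham mouse, 0.0727), chains of specialised basement membranes. Lox, which cross-links collagen, had 1.28, 2.02 and 2.08 FPKM in sham and 8.998, 11.9 and 21.4 FPKM at 24 h (log2FC 2.36 ± 0.29, adjusted p = 0.00317). Of 14 fibroblast markers 5 were higher and 4 lower. Among the lower were Dcn, which encodes decorin, a proteoglycan of resting matrix, with 120.2, 128 and 126 FPKM in sham and 88.9, 77.7 and 67.6 FPKM at 24 h (log2FC -0.68 ± 0.11, adjusted p = 0.00657). Comp, the cartilage oligomeric matrix protein, had 1.58, 1.31 and 1.21 FPKM in sham and 0.277, 0.105 and 0.159 FPKM at 24 h (log2FC -1.002 ± 0.13, adjusted p = 0.00405), and Cilp, a cartilage intermediate layer protein also made by cardiac fibroblasts, had 1.88, 0.911 and 2.29 FPKM in sham and 1.92, 6.11 and 1.35 FPKM at 24 h and was not called (adjusted p = 0.38). Ltbp2, a binding protein of latent TGF-beta and of microfibrils, rose from 0.595, 0.429 and 0.830 FPKM to 3.31, 6.06 and 7.14 FPKM (log2FC 1.96 ± 0.24, adjusted p = 0.00321). Acta2, the smooth muscle actin of myofibroblasts, had 72.5, 55.8 and 85.5 FPKM in sham and 62.04, 81.3 and 73.6 FPKM at 24 h, and the groups overlapped. Actn1, the alpha-actinin of stress fibres, rose from 8.06, 9.03 and 10.4 FPKM to 26.3, 34.4 and 47.2 FPKM (log2FC 1.83 ± 0.20, adjusted p = 0.0024).

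Vessel genes fell in part. Of 13 endothelial markers 4 were lower (none, 1 and none without the first, the second and the third sham mouse) and 1 higher (none without the first or the second sham mouse and 4 without the first mouse at 24 h). Kdr, the main VEGF receptor, had 62.5, 51.9 and 67.5 FPKM in sham and 27.5, 44.8 and 39.5 FPKM at 24 h (log2FC -0.71 ± 0.19, adjusted p = 0.0245 or, lacking the third sham mouse, 0.0865), and Aplnr, the apelin receptor, had 16.3, 11.1 and 15.2 FPKM in sham and 4.03, 9.45 and 3.34 FPKM at 24 h (log2FC -1.30 ± 0.32, adjusted p = 0.0209 or, lacking the first sham mouse, 0.0777). Its ligand gene Apln rose from 23.3, 17.8 and 22.05 FPKM to 45.6, 59.2 and 146 FPKM (log2FC 1.77 ± 0.39, adjusted p = 0.0144 or, lacking the second sham mouse, 0.0578), so that ligand and receptor moved apart. Cldn5, the claudin of tight junctions, was the 1 marker that rose (log2FC 1.20 ± 0.28, adjusted p = 0.0162 or, lacking the first sham mouse, 0.0667), and Cdh5 and Pecam1, junction proteins of all endothelium, were not called (adjusted p = 0.7 and 0.134). Of 20 plasminogen and coagulation genes 11 were higher and 1 lower (none without the first or the second sham mouse, 2 without the first mouse at 24 h and 3 with either other scaling). Plaur, the receptor of urokinase, had 1.84, 1.83 and 1.75 FPKM in sham and 22.2, 17.4 and 84.7 FPKM at 24 h (log2FC 3.56 ± 0.52, adjusted p = 0.00501). Among growth factors Hbegf, shed from stressed cells to act on EGF receptors, had 5.27, 4.85 and 5.15 FPKM in sham and 22.5, 24.2 and 39.7 FPKM at 24 h (log2FC 2.25 ± 0.20, adjusted p = 0.00141). Of 30 cell cycle and replication genes 12 were higher (7 without the first sham mouse) and none lower (1 with either other scaling). Mcm5, a replication helicase gene, had 1.74, 2.08 and 2.25 FPKM in sham and 4.16, 10.6 and 6.67 FPKM at 24 h (log2FC 1.36 ± 0.27, adjusted p = 0.011 or, lacking the first sham mouse, 0.0507), whereas the proliferation marker Mki67 had 0.444, 0.121 and 0.304 FPKM in sham and 0.595, 1.71 and 0.560 FPKM at 24 h and was not called (adjusted p = 0.101). The second mouse at 24 h was highest in both.

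**Figure D4:**
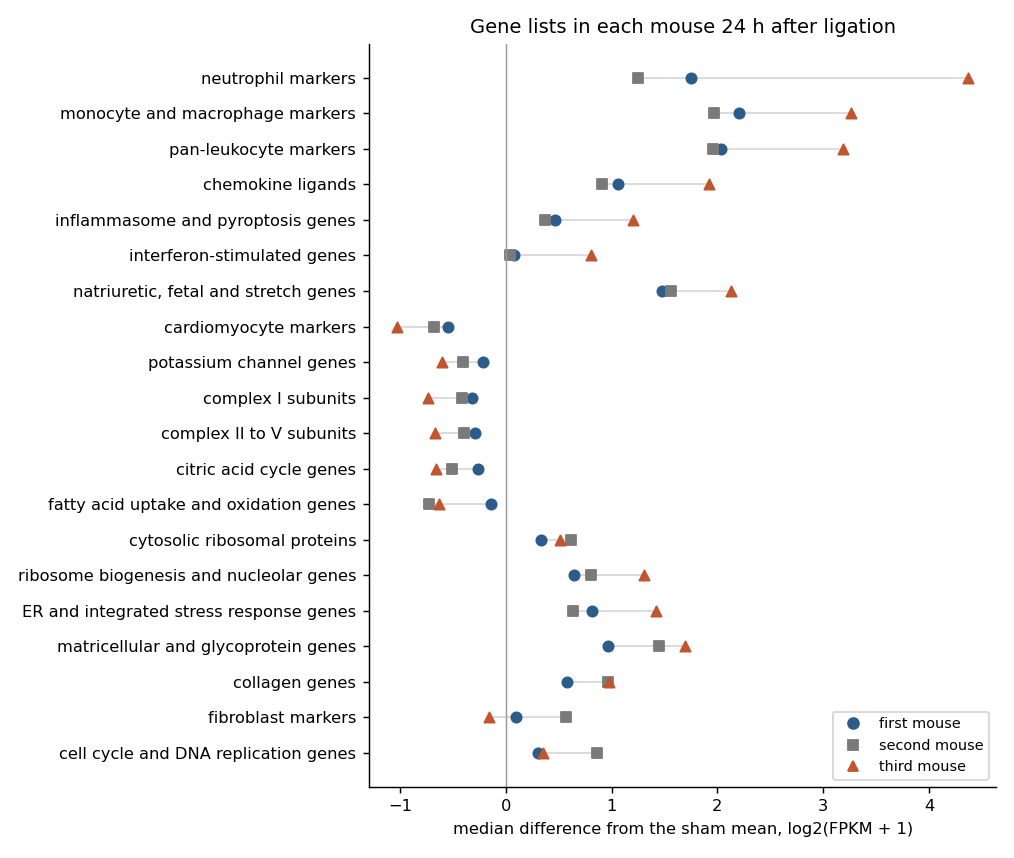
Median difference from the sham mean, on the log2(FPKM + 1) scale, over the tested members of 20 gene lists in the first (circle), the second (square) and the third (triangle) mouse at 24 h. The third mouse lies farthest right for neutrophil, chemokine and pan-leukocyte lists and farthest left for cardiomyocyte, respiratory chain and citric acid cycle lists, while the second mouse lies farthest right for cytosolic ribosomal protein and cell cycle genes.

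The 24 h group was also set directly against the mice at 6 h and at 72 h. These comparisons share the mice at 24 h with each other and with the comparison against sham. Of 12469 genes tested against 6 h, 1712 (13.7%) were higher and 281 (2.25%) lower at 24 h, but 1 and 1 without the second mouse at 6 h, and 113 and 19 without the second mouse at 24 h. Median-of-ratios scaling gave 440 and 419. Results against 6 h are therefore given for few genes, and each lost its call by limma when the second mouse at 6 h was left out. Of 27 genes of the unfolded protein and integrated stress responses 13 were higher at 24 h than at 6 h and 1 was lower. Manf, a secreted factor of this response, had 30.9, 20.97 and 24.6 FPKM at 6 h and 79.6, 69.9 and 99.8 FPKM at 24 h against 24.5, 25.5 and 25.9 FPKM in sham (24 h minus 6 h 1.67 ± 0.19, adjusted p = 0.00973). Of 30 heat shock proteins and chaperonins 4 were higher and 2 lower. Among the lower was Hspa1a, the inducible Hsp70, with 338, 82.6 and 118 FPKM at 6 h and 14.9, 8.03 and 35.7 FPKM at 24 h against 2.23, 2.59 and 3.38 FPKM in sham (24 h minus 6 h -3.11 ± 0.62, adjusted p = 0.0237). Egr1, Fos and Fosb were lower than at 6 h as well (differences -2.20, -2.07 and -2.04, adjusted p = 0.0312, 0.0332 and 0.0402) and were called above sham (adjusted p = 0.0226 or, lacking the first sham mouse, 0.0808, 0.00575 and 0.0319 or, lacking the first sham mouse, 0.103). None of the 18 neutrophil genes was called between 6 h and 24 h by limma, nor at an unadjusted p under 0.05, which 37.4% of all genes reached, and 8 of 18 monocyte and macrophage genes were higher at 24 h. Spp1 had 4.68, 0.569 and 2.23 FPKM at 6 h (24 h minus 6 h 4.07 ± 0.50, adjusted p = 0.0114).

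Between 24 h and 72 h more genes moved, with 3964 of 13028 (30.4%) higher and 1794 (13.8%) lower at 72 h. Median-of-ratios scaling gave 3180 higher and 2664 lower, and without the second or the third mouse at 72 h the lower calls were 1188 and 1044. The genes named below were called in all 6 fits with 1 mouse left out. Of 25 interferon-stimulated genes 23 were higher at 72 h than at 24 h, of 11 MHC class II genes 11, of 25 collagen genes 22, and of 37 cell cycle genes 31, with none lower in these lists. All 37 complex I subunits and 21 of 24 sarcomere and Z-disc genes were lower at 72 h than at 24 h. Col1a1 reached 806, 1178 and 862 FPKM at 72 h (72 h minus 24 h 4.60 ± 0.25, adjusted p = 3.82e-05). Gsdmd, which was not called at 24 h against sham, was higher at 72 h than at 24 h (0.90 ± 0.19, adjusted p = 0.00795). Some genes above sham at 24 h were lower at 72 h. Ankrd2 had 2.73, 2.47 and 2.24 FPKM at 72 h (72 h minus 24 h -4.57 ± 0.23, adjusted p = 3.43e-05), below every mouse at 24 h and above every sham mouse. Lcn2 had 14.7, 13.7 and 10.9 FPKM (difference -4.03, adjusted p = 0.00038) and Mt2 112, 112 and 94.4 FPKM (difference -3.25, adjusted p = 0.000778). Fhl1, Flnc and Hspb1 were lower at 72 h than at 24 h, with differences of -1.95, -2.07 and -2.23 on the log2 scale (adjusted p = 0.000304, 9.24e-05 and 0.000106). Others were below sham at 24 h and above the 24 h level at 72 h. Apoe had 984, 763 and 1281 FPKM at 72 h (difference 3.76, adjusted p = 3.3e-05), Thbs2 44.3, 65.6 and 64.3 FPKM (difference 3.05, adjusted p = 4.5e-05) and Comp 4.83, 7.49 and 6.997 FPKM (difference 2.64, adjusted p = 4.92e-05).

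**Figure D5:**
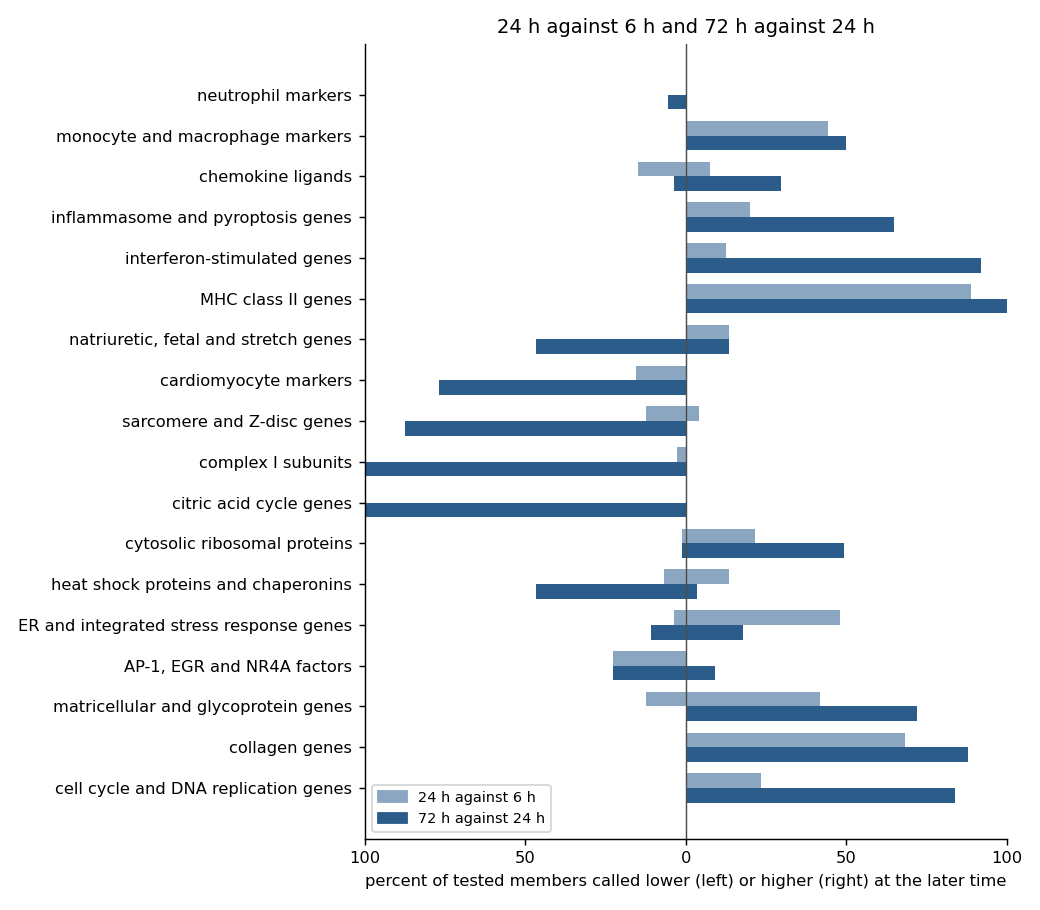
Share of tested members of 18 gene lists called higher (right of 0) or lower (left of 0) at 24 h than at 6 h (upper bar of each pair) and at 72 h than at 24 h (lower bar), in percent. Interferon, MHC class II, collagen and cell cycle lists have long right bars between 24 h and 72 h, and complex I and sarcomere lists have long left bars. Calls between 6 h and 24 h depended on the second mouse at 6 h.

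Of the genes with a mean of at least 5 FPKM at 24 h, the widest spread on the log2 scale among the 3 mice at 24 h, leaving out predicted symbols, was that of Hbb-b1, Cxcl3, Cxcl2, Snurf and Hbb-bs. Hbb-b1 had 1275, 0.192 and 0.271 FPKM in sham and 1396, 0.178 and 1613 FPKM at 24 h, and Hbb-bs had 66.02, 1028 and 1467 FPKM in sham and 28.8, 853 and 51.3 FPKM at 24 h. The mice with a high value in one of these near-identical beta-globin genes had a low value in the other, in both groups. Reads of the pair can be assigned to either gene, so neither value stands on its own. Snurf, an upstream reading frame on a shared imprinted transcript, had 18.4, 2.43 and 3.31 FPKM in sham and 28.8, 26.6 and 0.00842 FPKM at 24 h. Dpm1-adnp, a symbol that joins the names of Dpm1 and Adnp, had 21.7, 20.8 and 20.99 FPKM in sham and 0, 0 and 6.68 FPKM at 24 h (log2FC -3.49 ± 0.74, adjusted p = 0.0126 or, lacking the first sham mouse, 0.0517), and Dpm1 itself had 12.5, 12.7 and 11.1 FPKM in sham and 36.4, 35.5 and 30.6 FPKM at 24 h (log2FC 1.42 ± 0.10, adjusted p = 0.000859). Reads of a joined transcript and of Dpm1 can be split between the 2 symbols, so that these values are uncertain too.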

How the data were processed

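The deposited table holds FPKM for 24419 gene symbols in 18 mice, 3 per group, with no counts. The libraries were made from poly-A RNA and counting by strand is not stated in the sources used here. Per the labels and the study's methods, the authors used cutadapt 1.18 to trim reads, HISAT2 2.1.0 to map them to mm10 and StringTie 1.3.4d to compute the FPKM, with no further scaling between mice stated. The number of fragments per mouse is not in the table, so relative depth was estimated from the lowest values. Groups came from the labels, which give each mouse 1 sample.

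FPKM were tested as log2(FPKM + 1) with limma 3.58.1 in R 4.3.3 (lmFit, eBayes with a trend), 3 mice against 3, for every symbol whose FPKM was 1 or more in at least 1 of the 6 mice, and the SE is that of limma. Of the symbols, 25 had been turned into dates, of which 18 were tested but not named. Alternatives changed the pseudocount, the filter, the scaling between mice, the samples in the fit, the variance model, the block and the mice left out. Gene positions come from the GENCODE annotation of mm10 and promoter sequences from RefSeq (GRCm38.p6).

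The comparison and the 86 gene lists were chosen with earlier results of these data known, and 3 listed symbols had no match. Genes named are among the 12 largest rises and 8 largest falls, the 2 largest called rises and falls of each list, the most abundant member of each list in sham, genes the study discusses, the 5 with the widest spread at 24 h, and list members whose call turned against 6 h or 72 h. The largest rises and falls were taken from called genes without overlap between the groups, leaving out predicted symbols and dates. Not every gene so admitted is printed. Chosen after their values were seen were Acta2, Anxa2, Apln, Bckdhb, Calr, Canx, Cd3e, Cdh5, Col1a1, Cox6a1, Cox7a2, Cox8a, Cox8b, Cpt1b, Creld2, Ctgf, Cyp1b1, Ddit3, Dnajc3, Dpm1, Eef1a1, Eef1a2, Elane, Eno1, Flnc, Fn1, Folr2, Gclm, Hsp90b1, Itga5, Itga7, Kcnd2, Kcnd3, Ldhb, Lyve1, Manf, Mki67, Mpo, Myl7, Nppb, Nqo1, Pdia6, Pfkm, Pfkp, Pgam1, Pgam2, Postn, S100a4, Thbs1, Tnni3, Trem2 and Txnrd1. Some items are not reported here.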

Additional observations from a re-analysis of the deposited data

Results flagged for a closer look

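Each value below is a difference on the log2(FPKM + 1) scale with the adjusted p from limma, and it stands here because the level at 24 h differed from that at a neighbouring time by a direct test of 3 mice against 3. Groups of 3 mice were too small to look for single outlying mice.

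Against 6 h, Manf (1.67, adjusted p = 0.00973) and Spp1 (4.07, adjusted p = 0.0114) were higher at 24 h. Hspa1a (-3.11, adjusted p = 0.0237), Egr1 (-2.20, adjusted p = 0.0312), Fos (-2.07, adjusted p = 0.0332) and Fosb (-2.04, adjusted p = 0.0402) were lower at 24 h than at 6 h although higher than in sham. Without the second mouse at 6 h the adjusted p was 0.057 for Manf and Spp1, and without the second mouse at 24 h it reached 0.0801, 0.0953, 0.102 and 0.118 for Hspa1a, Egr1, Fos and Fosb.

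Against 24 h, several genes that were called higher than sham at 24 h had fallen at 72 h. These were Ankrd2 (-4.57, adjusted p = 3.43e-05), Lcn2 (-4.03, adjusted p = 0.00038), Mt2 (-3.25, adjusted p = 0.000778), Hspb1 (-2.23, adjusted p = 0.000106), Flnc (-2.07, adjusted p = 9.24e-05) and Fhl1 (-1.95, adjusted p = 0.000304). The genes Apoe (3.76, adjusted p = 3.3e-05), Thbs2 (3.05, adjusted p = 4.5e-05) and Comp (2.64, adjusted p = 4.92e-05) were below sham at 24 h and rose from 24 h to 72 h. Col1a1 (4.60, adjusted p = 3.82e-05) and Gsdmd (0.90, adjusted p = 0.00795) were higher at 72 h than at 24 h as well. All 11 genes kept their call with each of the 6 mice left out.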

How the results depend on the processing

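Counts of calls against sham by adjusted p alone moved by more than 1.5 times with the scaling between mice and with a sham mouse left out, and not with the other alternatives. The 3452 higher and 1513 lower calls became 2454 and 2369 with median-of-ratios scaling and 2075 and 2677 with quantile normalization. With a ratio over 2, median-of-ratios scaling gave 486 lower calls and quantile normalization 844 higher and 644 lower. Replacing the ratio by a log2 fold change beyond 1 left 171 lower. With the thresholds of the study, quantile normalization gave 929 higher and 694 lower genes, and no filter on low values 589 lower. Leaving out 1 mouse gave between 1376 and 3989 higher and 380 and 1787 lower calls, between 817 and 1496 higher and 185 and 415 lower ones with a ratio over 2, and 1144 to 1648 and 230 to 452 with the thresholds of the study.

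Between 6 h and 24 h, leaving out 1 mouse gave between 1 and 1771 higher and 1 and 372 lower calls, and median-of-ratios scaling 440 and 419. Between 24 h and 72 h leaving out 1 mouse gave 2800.0 to 4825 higher and 1044 to 2304 lower calls. The cause of these changes was not tested. Between the sham mice and the mice at 24 h, deviations of same-numbered mice from their group means correlated at 0.0812, -0.0071 and 0.037. The correlations of other-numbered mice ran from -0.179 to 0.108. Pairing by replicate number with the mice at 6 h or 72 h was not tested. With the replicate block, 2993 genes were higher and 1235 lower than sham, and 1 higher and 0 lower at 24 h than at 6 h, where the fit without it gave 1712 and 281.

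Of the 189 named genes tested, no called gene changed direction under any alternative. Median-of-ratios scaling ended the calls of Acta1, Casp1, Isg15, Nlrp3 and Ucp3 and called Eef1a2, Fhl2 and Folr2 lower. Quantile normalization also ended those 5, and those of Atp2a2, Cxcl3, Fosb, Gapdh, Ndufb8 and the symbol Adnp, and called Folr2 and Wipi1. Testing every symbol above 0 ended 17, among them Atp2a2, Casp1, Cxcl2, Gapdh, Il1b, Ndufb8 and Nlrp3. The fit of all 18 mice ended the calls of Fosb and Ucp3 and added Canx, Fhl2, Mki67, Naip2 and Pdk4. The replicate block ended the calls of Acta1, Casp1, Col4a3, Gapdh and Timp3 and added Canx, and the pseudocount of 0.1 ended none. Rescaling to the same sum ended the call of Nlrp3 only, as did leaving out the variance trend. The filter over all 18 mice ended those of Gapdh and Nlrp3. Of the called ones, 100 of 159 kept the call with each mouse left out.

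Depth per mouse is not known, and with 3 mice a group the smallest exact permutation p is 0.1, so single values rest on the spread that limma borrows across genes. Fits with 1 mouse left out also lose residual degrees of freedom.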

Other observations

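Annexins and S100 proteins of tissue cells, which bind calcium at membranes and in the cytosol, were higher in 15 of 17 tested genes and lower in 1 (none without the first or the second sham mouse and 2 with quantile scaling), with a median of 1.16. The list also holds S100a8 and S100a9, which were counted with the neutrophil genes. Anxa2, an annexin of endothelium and macrophages that binds plasminogen, had 45.8, 44.97 and 52.2 FPKM in the sham mice and 173, 197 and 364 FPKM at 24 h (log2FC 2.26 ± 0.26, adjusted p = 0.00268). S100a4, an S100 protein of fibroblasts and leukocytes, had 5.58, 4.77 and 5.90 FPKM in the sham mice and 53.9, 70.6 and 95.1 FPKM at 24 h (log2FC 3.50 ± 0.20, adjusted p = 0.000326). S100a1, the form of the cardiomyocyte and the most abundant of the list in sham, went the other way, with 1355, 1322 and 1199 FPKM in the sham mice and 1008, 884 and 730.0 FPKM at 24 h (log2FC -0.57 ± 0.13, adjusted p = 0.0167 or, lacking the first sham mouse, 0.0735). In these 3 genes the groups did not overlap.

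Of 13 genes of ketone, branched-chain amino acid and creatine metabolism 7 were lower (2, 2 and 4 without the first, the second and the third sham mouse) and 0 higher (1 without the third mouse at 24 h). Bckdhb, a subunit of the dehydrogenase that breaks down branched-chain amino acids, was among those that fell (log2FC -0.69 ± 0.15, adjusted p = 0.0144 or, lacking the first sham mouse, 0.0608). Of 21 integrin subunits 11 were higher and 3 lower (1, none and none without the first, the second and the third sham mouse). Itga5, which binds fibronectin, had 11.4, 9.40 and 11.1 FPKM in the sham mice and 34.03, 37.5 and 68.99 FPKM at 24 h (log2FC 1.97 ± 0.25, adjusted p = 0.00355), and Itgb6, an epithelial subunit that activates latent TGF-beta, fell (log2FC -1.21 ± 0.29, adjusted p = 0.0178 or, lacking the first sham mouse, 0.0689). Of 16 MAP kinase phosphatases and Sprouty inhibitors, which act as brakes on growth factor signalling, 9 were higher (3 without any 1 sham mouse and 5 with quantile scaling) and 0 lower (1 without the third mouse at 24 h and 2 with either other scaling), and Dusp5 had 2.58, 2.77 and 2.64 FPKM in the sham mice and 9.72, 5.70 and 21.8 FPKM at 24 h (log2FC 1.69 ± 0.39, adjusted p = 0.0166 or, lacking the first sham mouse, 0.0622).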
